A study of Rattus norvegicus with 14 samples.

Results

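The transcripts described here encode 10 enzymes that remove reactive oxygen species or rebuild the cell's reducing capacity: the superoxide dismutases Sod1, Sod2 and Sod3, catalase (Cat), the glutathione peroxidases Gpx1 and Gpx3, haem oxygenase 1 (Hmox1), the quinone reductase Nqo1, and Gclc and Gclm, the catalytic and modifier subunits of glutamate cysteine ligase. They were picked out by name among 19769 named genes on the array, as a list chosen with earlier results of these data known, and each had 1 probe. A probe was tested if it was well above background on at least 4 of the 14 arrays, and 9 of the 10 genes passed. Gclm did not: its probe was not well above background on any array.

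Superoxide dismutases turn superoxide into hydrogen peroxide in the cytosol (Sod1), the mitochondrial matrix (Sod2) and the space outside the cell (Sod3). Catalase and the glutathione peroxidases then reduce the peroxide, and glutamate cysteine ligase makes the first intermediate of glutathione, the thiol that the peroxidases consume. Haem oxygenase 1 breaks haem down to biliverdin, carbon monoxide and iron. Hmox1, Nqo1, Gclc and Gclm are known targets of Nrf2, a transcription factor that oxidants release from its inhibitor Keap1, and working muscle is a steady source of such oxidants.

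Gene expression was measured in plantaris, a calf muscle, of Wistar rats on 3 diets, with 1 array for each muscle. The control diet (n = 4) held 1000 IU of vitamin D per kg, the depletion diet (n = 6) was short of vitamin D, and the repletion animals (n = 4) were depleted and then given vitamin D again. The labels give no age, sex, length of feeding or vitamin D content of the other 2 diets. Each title numbers its muscle as a biological replicate of its diet. The arrays lay on 5 slides, of which slide 1 held 2 controls, 1 depletion and 1 repletion array, slide 2 held 1 of each diet, slide 3 held 2 depletion arrays and 1 repletion array, slide 4 held control 4 and depletion 5, and slide 5 held depletion 6 and repletion 4. For depletion replicate 1 the diet recorded in the labels is that of repletion, while its title says depletion. Its title was followed, and results for the tested genes of the list are also given without it. Those for marker genes and other genes of the pathways are given with it only.

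A level is the log2 of a probe's signal over the 75th percentile of its array, so each unit is a doubling. Levels compare arrays for 1 probe, not genes with each other. Group levels are given as mean ± SD. Differences are log2 differences ± SE from a limma fit in which slide was a block, with p-values adjusted over all 26391 probes tested. Between 82.8% and 88.1% of spots on an array were well above background, no spot was saturated, and precision is limited by how few arrays there are. All 13 muscle fibre markers were measured on every array, with a summed level of 2160 to 2900 times the 75th percentile. A summed level adds linear signals over the probes of a list, so the brightest markers weigh most in it. In a whole muscle, fewer cells of a type and less RNA per cell cannot be told apart.

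The array reads each transcript through 1 probe of 60 bases. The probes of Hmox1 and Nqo1 are shown because these transcripts gave the largest differences from control and between repletion and depletion, and those of Cat and Gpx3 because they cross an intron. They are written 5′ to 3′ as the files give them, on build rn4. The Cat and Gpx3 probes span 1945 and 1468 bases of the genome. The Hmox1 probe lies at chr19:13969336-13969395 on the plus strand, the Nqo1 probe at chr19:37251727-37251786 on the minus strand, the Cat probe at chr3:88683063-88685007 on the plus strand and the Gpx3 probe at chr10:40316128-40317595 on the plus strand. In their RefSeq transcripts these probes start at bases 922, 816, 1531 and 308.
Hmox1 probe: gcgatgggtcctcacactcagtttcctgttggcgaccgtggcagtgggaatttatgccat
Nqo1 probe: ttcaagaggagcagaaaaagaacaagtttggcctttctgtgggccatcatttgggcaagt
Cat probe: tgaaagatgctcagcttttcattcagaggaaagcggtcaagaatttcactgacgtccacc
Gpx3 probe: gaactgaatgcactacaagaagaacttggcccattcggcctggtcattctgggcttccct
The Sod1 probe lies at chr11:29810797-29810856, the Sod2 probe at chr1:41863005-41863064, the Sod3 probe at chr14:63381466-63381525 and the Gclc probe at chr8:82762574-82762633. The files place the Gpx1 probe at 1046407 to 1046466 of the unplaced sequence chr16_random. RefSeq has the Gpx1 gene on chromosome 8 of build GRCr8, and this difference in placement was not resolved.

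The core of the antioxidant response element, the DNA site bound by Nrf2, was searched as TGACNNNGC on both strands of the 250 bases before the transcription start (RefSeq, build GRCr8). Of the 10 genes, 8 had a promoter sequence in that table, and Hmox1 and Sod3 had none. The core was found in 2 of these 8, against 3373 of all 33469 promoters (10.1%). The AP-1 site TGAGTCA was found in 0 of the 8 and in 4.05% of all promoters. The 2 promoters with a match, Sod2 at chr1:50050169-50050418 (minus strand) and Gclm at chr2:213031885-213032134 (plus strand), are shown with the match in capitals, so that it can be read in place; Gclm itself gave no measured level.
Sod2 promoter: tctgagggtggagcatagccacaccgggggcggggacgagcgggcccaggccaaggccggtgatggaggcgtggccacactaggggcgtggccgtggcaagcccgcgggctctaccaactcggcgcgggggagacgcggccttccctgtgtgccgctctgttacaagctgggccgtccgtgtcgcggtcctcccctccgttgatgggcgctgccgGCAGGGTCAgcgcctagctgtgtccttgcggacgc
Gclm promoter: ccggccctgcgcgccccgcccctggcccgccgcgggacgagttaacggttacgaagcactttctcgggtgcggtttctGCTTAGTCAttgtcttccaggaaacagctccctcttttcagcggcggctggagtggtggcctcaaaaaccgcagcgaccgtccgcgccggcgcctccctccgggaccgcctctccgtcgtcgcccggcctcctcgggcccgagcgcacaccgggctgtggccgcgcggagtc
The Sod2 match starts 35 bases before the transcription start and the Gclm match 172 bases before it, both on the strand opposite to the gene. A match describes these letters and is not evidence that a factor binds there. Sites farther than 250 bases from the start were not searched, so no match does not mean that a gene lacks the element.

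Depletion was first compared with control, to ask how a lack of dietary vitamin D relates to these enzymes. In the fit, 6 of the 9 tested genes were higher in depletion and 3 lower, with a median log2 difference of 0.19 against -0.02 over all probes, of which 45.3% were higher. The largest differences were in Hmox1 (0.66, a 1.58-fold ratio), Gpx1 (0.56, 1.48-fold), Sod3 (-0.50, a ratio of 0.708) and Gclc (0.30, 1.23-fold). None of the 9 passed an adjusted p under 0.05, where the share of all probes called was also 0%. At an unadjusted p under 0.05 there were 2 of the 9, Gpx1 and Gclc, against 4.82% of all probes. No gene of the 9 had depletion arrays that lay wholly above or below the control arrays, against 0.856% of all probes.

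Repletion was compared with depletion to ask whether restored vitamin D went with a difference from the depleted state. Here 6 of the 9 genes were higher and 3 lower, with a median of 0.12 against 0.04 over all probes, of which 58.9% were higher. None was called, again against 0% of all probes, and Nqo1 was the 1 gene with an unadjusted p under 0.05, against 3.46% of all probes. None had groups that did not overlap, against 0.307% of probes. Repletion minus control gave 7 genes higher and 2 lower, with a median of 0.20 against 0.01 and 53.6% of all probes higher. None was called, against 0%, none had an unadjusted p under 0.05, against 1.99%, and Sod1 alone had groups that did not overlap, with every repletion array above every control array in level, against 1.16% of probes in either direction. With the slide effects of the fit removed, the Sod1 groups overlapped, with repletion 3 at 5.585 and control 4 at 5.594. These 3 comparisons share their groups and are not independent of each other. In limma's F test over the 3 diets the adjusted p was 0.991 for each of the 9 genes, and 3.1% of all probes had an unadjusted p under 0.05.

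**Figure D1:**
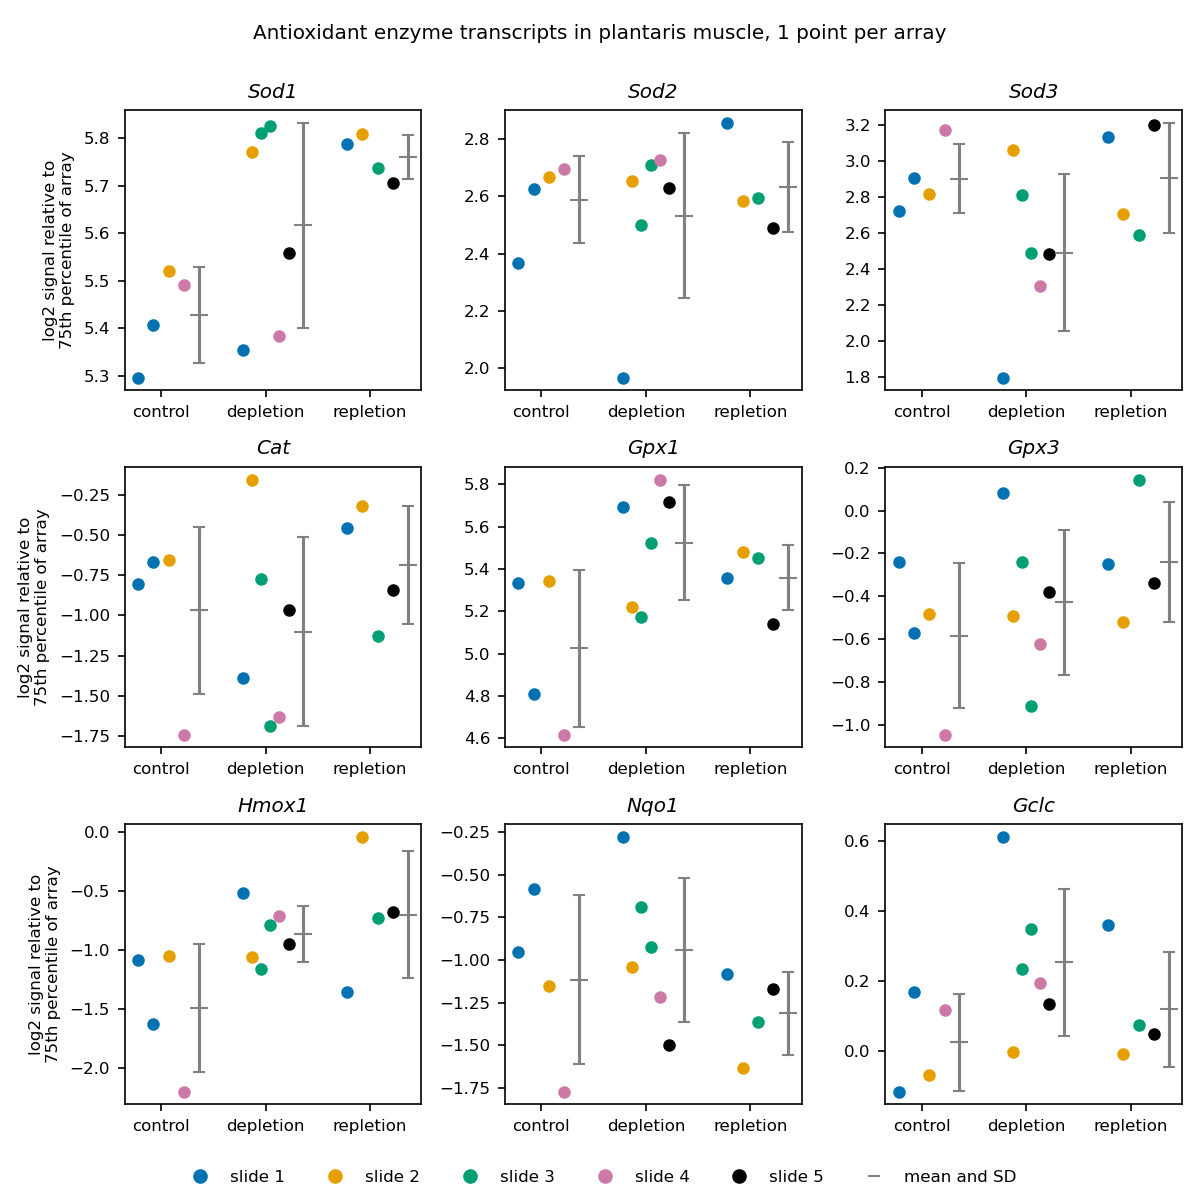
Level of each tested transcript (log2 signal relative to the 75th percentile of the array, vertical axis of its own in each panel) in control, depletion and repletion muscles. Each point is 1 array, coloured by slide, and the bar is the group mean with its SD. The Sod1 repletion arrays lie above all control arrays, and control 4 has the lowest Hmox1 level, at -2.20.

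Sod1, the copper and zinc enzyme of the cytosol, was at 5.30, 5.41, 5.52 and 5.49 in control replicates 1 to 4. The depletion arrays ran from 5.35 over a median of 5.66 to 5.83, and the repletion arrays were at 5.79, 5.81, 5.74 and 5.71. The repletion muscles lay close together and above every control muscle, and the depletion muscles overlapped with both. The means were 5.43 ± 0.10 (SD, n = 4), 5.62 ± 0.22 (SD, n = 6) and 5.76 ± 0.05 (SD, n = 4), so control was lowest and repletion highest, with depletion within its own spread of both. Repletion minus control was 0.25 ± 0.12 (95% interval -0.03 to 0.53), with an unadjusted p of 0.0774 and an adjusted p of 1. It was 0.44 on slide 1 and 0.29 on slide 2, the slides that hold both diets. Without repletion replicate 1 it was 0.12 ± 0.14. The 2 differences that involve depletion were 0.10 ± 0.11 against control and 0.14 ± 0.10 for repletion minus depletion. Without depletion replicate 1 these values were 0.17 ± 0.12 and 0.10 ± 0.11.

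Sod2, the manganese enzyme of mitochondria, was at 2.37, 2.62, 2.67 and 2.69 in control and at 2.86, 2.58, 2.60 and 2.49 in repletion. Depletion arrays had a median of 2.64 and ran from 1.97 to 2.73. The groups overlapped throughout, and depletion replicate 1 lay apart as the lowest array. Group means were 2.59 ± 0.15 (SD, n = 4) in control, 2.53 ± 0.29 (SD, n = 6) in depletion and 2.63 ± 0.16 (SD, n = 4) in repletion, which do not differ beyond their spread. The difference between depletion and control was -0.10 ± 0.17 with depletion replicate 1 and 0.12 ± 0.14 without it. Repletion minus depletion was 0.14 ± 0.16, or -0.0048 ± 0.12 without that array, and repletion minus control was 0.04 ± 0.19 (0.12 ± 0.13 without it).

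Sod3, the secreted enzyme held at the cell surface and matrix, was at 2.72, 2.90, 2.81 and 3.17 in control. In depletion it ran from 1.80 through a median of 2.49 to 3.06, and in repletion it was at 3.13, 2.70, 2.59 and 3.20. Depletion held the 4 lowest arrays of the 14, while its highest array lay within the control range. The order was depletion at 2.49 ± 0.43 (SD, n = 6), then control at 2.90 ± 0.19 (SD, n = 4) and repletion at 2.91 ± 0.31 (SD, n = 4), the last pair the same within their spread. Depletion minus control was -0.50 ± 0.27 (95% interval -1.09 to 0.10, adjusted p = 0.832, limma), and it was -1.01, 0.24 and -0.86 within slides 1, 2 and 4. In repletion minus depletion Sod3 was at 0.41 ± 0.24 (adjusted p = 0.933) and differed in sign between slides, at 1.33, -0.35, -0.06 and 0.72 on slides 1, 2, 3 and 5. Without depletion replicate 1 the values were -0.23 ± 0.26 and 0.24 ± 0.22, both smaller in size. The 6 fibroblast markers had a median difference of -0.35 in depletion minus control, 5 of 6 lower, and 0.42 in repletion minus depletion, 6 of 6 higher. Their summed level ran from 31.2 to 57.5 in control, 22.8 to 43 in depletion and 27.4 to 47.9 in repletion, and all 6 were well above background on every array. Their part in the Sod3 values was not tested.

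Cat, the peroxisomal enzyme that splits hydrogen peroxide, was at -0.80, -0.67, -0.66 and -1.74 in control. Depletion arrays ran from -1.69 over a median of -1.18 to -0.16, and repletion arrays were at -0.46, -0.32, -1.13 and -0.84. Control 4 stood apart from the other controls, and the range within depletion was wider than any distance between group means. Means were -0.97 ± 0.52 (SD, n = 4), -1.10 ± 0.59 (SD, n = 6) and -0.69 ± 0.37 (SD, n = 4) in control, depletion and repletion. Differences were -0.02 ± 0.24 for depletion minus control, 0.22 ± 0.22 for repletion minus depletion and 0.20 ± 0.26 for repletion minus control. Without depletion replicate 1 the first of these was 0.26 ± 0.22 and the second 0.05 ± 0.19. The third was 0.04 ± 0.32 without repletion replicate 1 and 0.05 ± 0.26 with depletion replicate 1 counted as repletion. In limma's F test over slides Cat had an unadjusted p of 0.0258 (adjusted p = 0.0831), and over the 3 diets an unadjusted p of 0.594. For comparison, 34.9% of all probes had an unadjusted p under 0.05 in that slide test and 28.1% passed an adjusted p under 0.05.

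Gpx1, the main cytosolic glutathione peroxidase, is a selenium enzyme and was read by 10 spots per array. The placement of its probe was not resolved, as given above. Control arrays were at 5.33, 4.81, 5.35 and 4.62, and repletion arrays at 5.36, 5.48, 5.45 and 5.14. Depletion arrays ran from 5.17 over a median of 5.61 to 5.82. The lowest 2 arrays were controls and the highest 4 were depletion, and depletion and control overlapped between 5.17 and 5.35. Means were 5.03 ± 0.37 (SD, n = 4) in control, 5.36 ± 0.15 (SD, n = 4) in repletion and 5.52 ± 0.27 (SD, n = 6) in depletion. Depletion minus control was 0.56 ± 0.23 (95% interval 0.06 to 1.07), with an unadjusted p of 0.033 and an adjusted p of 0.832 from limma. It was 0.62 on slide 1, -0.12 on slide 2 and 1.21 on slide 4. The value was 0.33 ± 0.23 without control 4 and 0.53 ± 0.27 without depletion replicate 1. Leaving out control 4 takes slide 4 out of the comparison, as leaving out depletion 5, the highest Gpx1 array, would. That shift cannot be laid on control 4 rather than depletion 5. Repletion minus depletion was -0.19 ± 0.21 (-0.17 ± 0.23 without depletion replicate 1) and repletion minus control 0.37 ± 0.25, or 0.22 without control 4 and 0.59 without control 3. The spots of this probe that were kept varied by 2.66% to 9.92% (CV) on an array.

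Gpx3, the secreted glutathione peroxidase of plasma, was at -0.24, -0.57, -0.48 and -1.05 in control. It ran from -0.91 over a median of -0.44 to 0.08 in depletion, and repletion arrays were at -0.25, -0.52, 0.14 and -0.34. The groups overlapped over most of their range. Means were -0.58 ± 0.34 (SD, n = 4) in control, -0.43 ± 0.34 (SD, n = 6) in depletion and -0.24 ± 0.28 (SD, n = 4) in repletion, with no neighbours apart beyond their spread. The fit put depletion minus control at 0.19 ± 0.22 (0.05 ± 0.24 without depletion replicate 1). From depletion to repletion the difference was 0.12 ± 0.20, or -0.13 without repletion replicate 3, and repletion minus control 0.31 ± 0.24. The latter was 0.16 without repletion replicate 3 and 0.07 with only those groups fitted.

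Hmox1, the inducible haem oxygenase, also had 10 spots per array, with a CV of 2.05% to 8.33% among the spots kept. Control arrays were at -1.09, -1.63, -1.05 and -2.20, and repletion arrays at -1.36, -0.04, -0.73 and -0.68. Depletion arrays ran from -1.16 over a median of -0.87 to -0.52. Control 2 and control 4 were the lowest of the 14 arrays, repletion 1 came next, and the other 2 controls lay inside the depletion range. Means were -1.49 ± 0.54 (SD, n = 4) in control, -0.87 ± 0.24 (SD, n = 6) in depletion and -0.70 ± 0.54 (SD, n = 4) in repletion. Both formerly or currently depleted groups were thus higher than control on average, and their own means differed by less than their SDs.

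Hmox1 gave the largest difference among the 9 genes in both comparisons with control. Its depletion minus control difference was 0.66 ± 0.31 (95% interval -0.03 to 1.35, unadjusted p = 0.0587, adjusted p = 0.832, limma). Repletion minus control was 0.74 ± 0.33 (95% interval -0.01 to 1.49, unadjusted p = 0.0524, adjusted p = 1, limma). Within slides, depletion minus control was 0.84 on slide 1, -0.01 on slide 2 and 1.49 on slide 4, where control 4 is the only control. Repletion minus control was 0.0027 on slide 1 and 1.00 on slide 2. Both values moved as single arrays were left out. Depletion minus control was 0.36 ± 0.32 without control 4, which takes slide 4 out of that comparison. As for Gpx1, that shift cannot be laid on control 4 rather than depletion 5. Repletion minus control ran from 0.50 without repletion replicate 2 to 1.20 without repletion replicate 1. Without depletion replicate 1 the values were 0.48 ± 0.35 and 0.68 ± 0.34. Repletion minus depletion was 0.08 ± 0.28 (95% interval -0.55 to 0.71), 0.20 ± 0.30 without depletion replicate 1 and -0.11 without repletion replicate 2.

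Macrophages, which take up haem and are known to express Hmox1, were also read through their markers. Of 12 macrophage markers, 11 were higher in depletion than in control with a median difference of 0.43, and 10 were higher in repletion than in control with a median of 0.45. Their summed level, in which the bright probes of Lyz2 and C1qb weigh most, ran from 14.1 to 30 in control, from 15.8 to 50.5 in depletion and from 28.2 to 33 in repletion. None of the 12 was called, and 11 of them were well above background on all arrays, while Marco was so on 13. Among 7 red blood cell markers all were higher in depletion than in control, with a median of 0.70, and all were lower in repletion than in depletion, with a median of -0.40. Their summed level was 80.8 to 124 in control, 71.6 to 284 in depletion and 81.7 to 162 in repletion. The 6 neutrophil markers, with summed levels of 0.169 to 0.325, 0.193 to 1.6 and 0.235 to 0.538 in the same order, had medians of 0.99 and -0.45 in those comparisons. The first median is set by Elane (1.03), well above background on 6 of 14 arrays, and Cxcr2 (0.95), so on 13. Mpo lay the other way in both comparisons, at -0.59 and 0.67. The highest depletion sums of red blood cell, macrophage and neutrophil markers were all those of depletion replicate 1, the array with the contradictory diet label. The next highest depletion sums were 167, 43.4 and 0.43. The medians above include that array. The part of these cells in the Hmox1 and Gpx1 values was not tested.

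**Figure D2:**
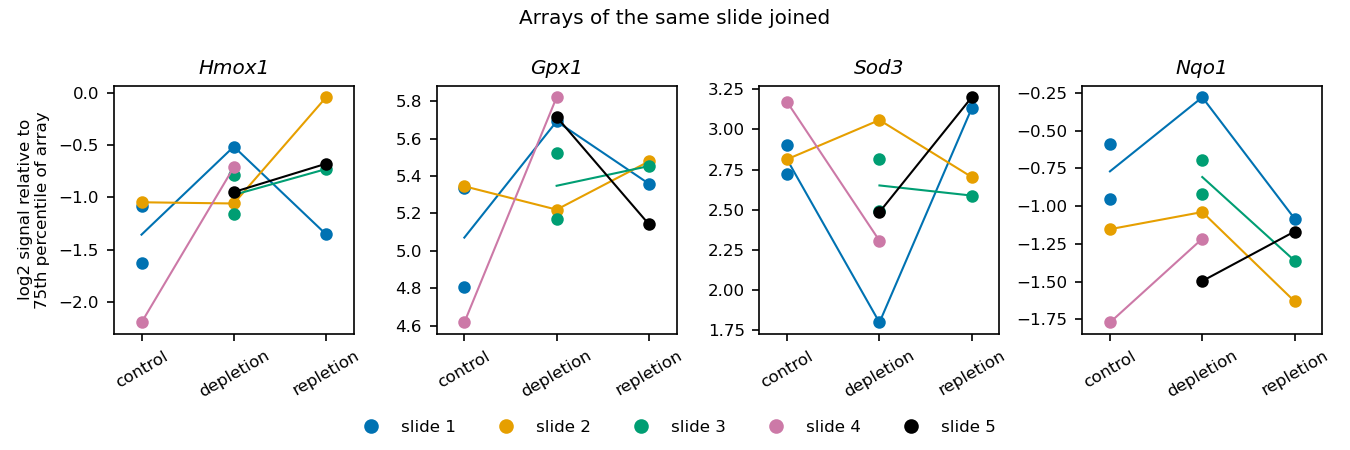
Levels of Hmox1, Gpx1, Sod3 and Nqo1 (log2 signal relative to the 75th percentile of the array) by diet. Points are arrays and lines join the means of the arrays that share a slide. On slide 4 Hmox1 and Gpx1 were higher in depletion by 1.49 and 1.21, while on slide 2 both differences were near 0 (-0.01 and -0.12).

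Nqo1, which reduces quinones with paired electrons and is a common marker of Nrf2 activity, was at -0.95, -0.59, -1.15 and -1.77 in control. Depletion arrays ran from -1.50 over a median of -0.98 to -0.28, and repletion arrays were at -1.08, -1.63, -1.36 and -1.17. The groups overlapped, and all 4 repletion arrays lay below the depletion median. Means were -1.12 ± 0.50 (SD, n = 4) in control, -0.94 ± 0.42 (SD, n = 6) in depletion and -1.31 ± 0.24 (SD, n = 4) in repletion. Repletion minus depletion was -0.45 ± 0.18 (95% interval -0.85 to -0.05), with an unadjusted p of 0.0311 and an adjusted p of 0.933 from limma. It was -0.80, -0.59 and -0.55 on slides 1, 2 and 3 and 0.33 on slide 5. Depletion minus control was 0.29 ± 0.19 and was above 0 on each of the 3 slides that hold both diets (0.49, 0.11 and 0.55), and repletion minus control was -0.16 ± 0.21. Without depletion replicate 1 the first 2 values were -0.38 ± 0.19 and 0.18 ± 0.22. Like Cat, Nqo1 differed between slides at an unadjusted p of 0.0279 (adjusted p = 0.0887, limma's F test).

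Gclc, the catalytic subunit that sets the pace of glutathione synthesis, was at -0.12, 0.17, -0.07 and 0.12 in control. In depletion it ran from -0.0031 over a median of 0.21 to 0.61, and in repletion it was at 0.36, -0.0098, 0.08 and 0.05. The highest array was depletion replicate 1, and the groups overlapped. Means were 0.02 ± 0.14 (SD, n = 4) in control, 0.12 ± 0.17 (SD, n = 4) in repletion and 0.25 ± 0.21 (SD, n = 6) in depletion. Depletion minus control was 0.30 ± 0.12 (95% interval 0.02 to 0.58), with an unadjusted p of 0.0401 and an adjusted p of 0.832 from limma. It was 0.59, 0.07 and 0.08 within slides 1, 2 and 4, and 0.20 ± 0.13 without depletion replicate 1, which is the depletion array of slide 1. Repletion minus depletion was -0.12 ± 0.11 (-0.06 ± 0.11 without that array) and lay below 0 on all 4 slides that hold both (-0.25, -0.01, -0.22 and -0.09), and repletion minus control was 0.18 ± 0.14.

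Gclm, the modifier subunit, has 1 probe at chr2:218915215-218915274 that was well above background on 0 of 14 arrays, with signals of 2.1 to 9.19 intensity units. For 6 of its 14 spots the scanner software had put a surrogate value in place of a measured one. The mean net signal of the negative control spots was 14.68 to 23.7 units, which is another measure than the processed signal given for Gclm. Its probe has a GC content of 15%, and of the 8 probes on the array at or under that value 4 (50%) were not well above background on any array, against 7.9% of all 30367 probes. The Gclm probe is itself among those 8 and those 4, so the share is not independent of it. The part of GC content in its low signal was not tested. The values give no level and no difference between diets for Gclm.

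**Figure D3:**
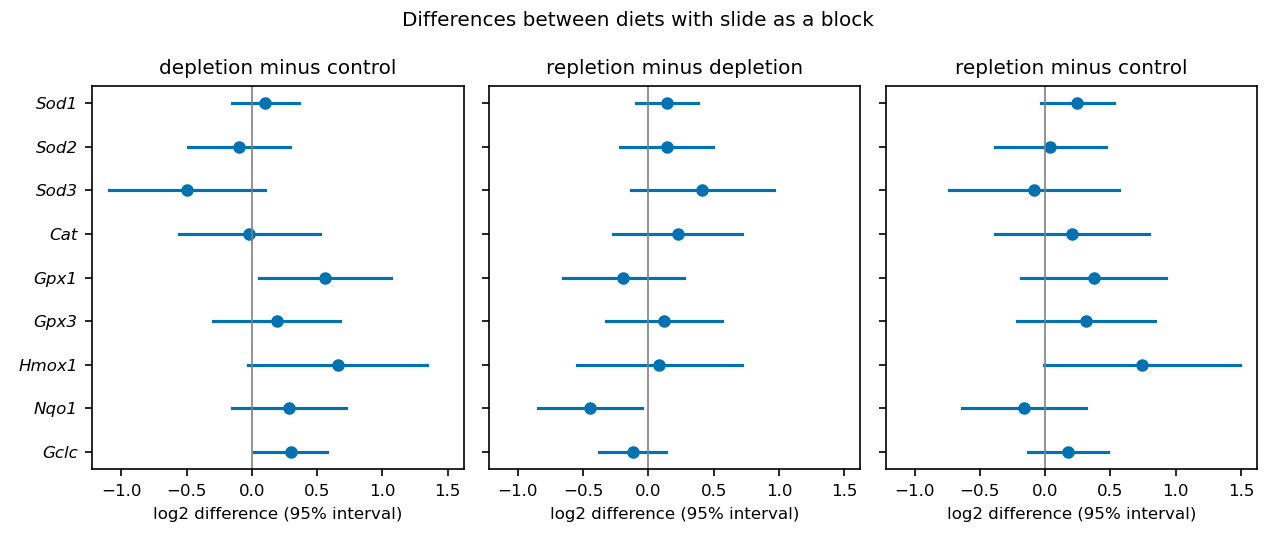
Log2 differences between diets for the 9 tested transcripts, with slide as a block. Points are estimates and bars their 95% intervals. Intervals that leave out 0 are those of Gpx1 (0.06 to 1.07) and Gclc (0.02 to 0.58) in depletion minus control and of Nqo1 (-0.85 to -0.05) in repletion minus depletion.

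Other genes of the same pathways were read from 7 lists with 113 symbols, alternate symbols included, of which 102 were tested. None was called in any comparison (lowest adjusted p 0.832 in depletion minus control, limma). In depletion minus control 52 were higher and 50 lower, with 4 higher and 3 lower at an unadjusted p under 0.05 (2.13% and 2.69% of all probes) and a median of 0.0043. Repletion minus depletion had 58 higher and 44 lower, with 1 in each direction at that level (2.5% and 0.955% of all probes). Repletion minus control had 63 higher and 39 lower, with 1 higher and 0 lower at that level (1.3% and 0.693% of all probes).

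None of the regulators of the pathway was called. Nfe2l2, which encodes Nrf2, differed by 0.20 ± 0.16 in depletion minus control, by -0.18 ± 0.15 in repletion minus depletion and by 0.02 ± 0.18 in repletion minus control. Keap1, its inhibitor, differed by -0.12 ± 0.14, 0.08 ± 0.13 and -0.03 ± 0.16 in the same order. For Bach1, a repressor of Hmox1, the values were 0.16 ± 0.25, 0.14 ± 0.23 and 0.30 ± 0.28. Maff, a small Maf protein of the kind that pairs with Nrf2 on DNA, differed by 0.34 ± 0.33 in repletion minus control. Of the 9 regulators 5 were higher in depletion than in control and 4 lower, with a median of 0.07.

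The haem and iron list was the one of the 7 with the largest median in depletion minus control, 0.23, with 10 of 14 genes higher and 4 of those at an unadjusted p under 0.05 in limma. Of all probes 45.3% were higher, and 2.13% were higher at that level. Hpx, the plasma protein that binds free haem, differed by 1.43 ± 0.51 (limma, unadjusted p = 0.0202) and was well above background on 13 of 14 arrays. Cp, the ferroxidase ceruloplasmin, differed by 1.12 ± 0.39 (limma, unadjusted p = 0.0172). The other 2 were Hp, which binds free haemoglobin, at 1.15 ± 0.46 and Hamp, the iron hormone hepcidin, at 0.33 ± 0.12, both named after their values were seen. In repletion minus depletion 9 of the 14 were lower, with a median of -0.11, and Hpx differed by -1.09 ± 0.47 (unadjusted p = 0.0435) and Hp by -0.87 ± 0.42. Cp differed by 0.94 ± 0.43 in repletion minus control. Hmox2, the constitutive haem oxygenase, differed by 0.15 ± 0.10 and -0.12 ± 0.09 in those comparisons. The red blood cell and macrophage markers given above lay in the same direction in depletion minus control, and their part was not tested.

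Among the glutathione genes, Gpx2 differed by -0.42 ± 0.19 in depletion minus control, and Ggt1, which splits glutathione outside the cell, by -1.52 ± 0.46 (unadjusted p = 0.00885), but Ggt1 was well above background on 5 of 14 arrays only. Of the 24 genes 10 were higher and 14 lower, with a median of -0.04. Msrb2, a mitochondrial methionine sulfoxide reductase, had the smallest unadjusted p of the 102 genes in depletion minus control, 0.00626, at -0.95 ± 0.27, and was at -0.63 ± 0.30 in repletion minus control. The stress protein gene Sesn1 differed by -0.45 ± 0.20 (unadjusted p = 0.0451), and 11 of the 18 peroxiredoxin and thioredoxin genes were lower. Tkt, a transketolase of the pentose phosphate pathway, was at 0.33 ± 0.17 in depletion and 0.32 ± 0.18 in repletion, both relative to control. Of the oxidant sources, Nos1, the neuronal nitric oxide synthase found at the muscle membrane, differed by -0.48 ± 0.22 in depletion minus control and by 0.49 ± 0.20 in repletion minus depletion (unadjusted p = 0.0348 for the latter). Duox1, a dual oxidase, was 0.66 ± 0.28 above control in repletion (unadjusted p = 0.0445).

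The 9 transcripts did not move as 1 block over the 14 arrays. After each slide's mean was removed, the 36 pairs had Pearson correlations from -0.80 to 0.79 with a median of -0.04, and 18 were positive. Gpx1 and Hmox1 ran together at r = 0.79 and rho = 0.77, with permutation p-values of 0.0298 and 0.0168 (exact, two-sided, within slides; adjusted over the 36 pairs 0.403 and 0.202). Without control 4 and depletion 5, the arrays farthest from the Gpx1 median, r was 0.61, and without depletion replicate 1 it was 0.76. For these and the values below, slide means were taken over all 14 arrays before any was left out. An array left out thus still enters the centred levels of the others on its slide. Sod3 and Gpx1 ran opposite to each other at r = -0.80 and rho = -0.84, with exact permutation p-values of 0.0489 and 0.0162 (adjusted 0.44 and 0.202). That r was -0.95 without depletion 1 and repletion 1, and -0.81 without depletion 1 alone. Sod3 and Hmox1 gave r = -0.71 and rho = -0.66, with exact permutation p-values of 0.0336 and 0.0561 (adjusted 0.403 and 0.404). Sod3 and Cat gave r = 0.65 and rho = 0.61, with exact permutation p-values of 0.00955 and 0.0136 (adjusted 0.344 and 0.202). That r fell to 0.33 without depletion 1 and repletion 1, and to 0.45 without depletion 1 alone. None of the 36 passed an adjusted p under 0.05. The arrays differ in diet as well, so the diet differences given above enter these values.

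**Figure D4:**
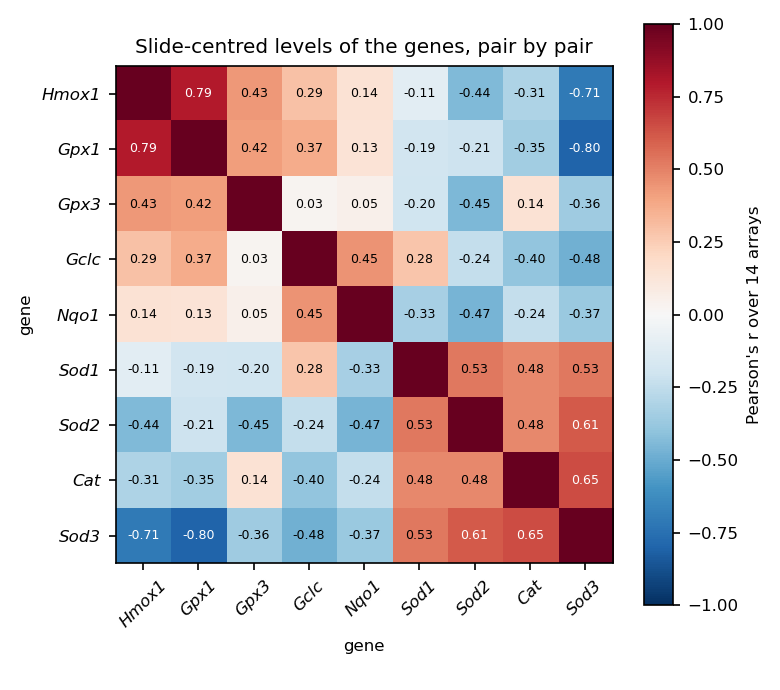
Pearson correlation between each pair of the 9 transcripts over 14 arrays, after the mean of each slide was removed. Colour and number give r. Gpx1 and Hmox1 share the highest value (0.79) and Gpx1 and Sod3 the lowest (-0.80).

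Among 14626 genes well above background on all arrays, those with the slide-centred pattern most like each enzyme were named as a description. For Sod2, whose depletion replicate 1 stood apart, these were Hadh (r = 0.98, rho = 0.94), Acsl1 (r = 0.93, rho = 0.82) and Naa38 (r = 0.91, rho = 0.65). For Gpx1 they were Slmap (0.95), Pdlim1 (0.95) and Fhl1 (0.94). Sod3 was most like Commd9 and Cib2, both with r = 0.97, and Cat most like Ank2 (0.96), which encodes an ankyrin. Hmox1 was most like Gramd2b (0.91), Gpsm2 (0.90) and Sin3b (0.89), a corepressor. Gpx3 was most like Baz2b (r = 0.90, rho = 0.85) and Foxo3 (r = 0.90, rho = 0.74). The nearest to Sod1 was Ephb6 (0.96), to Gclc the nucleolar protein gene Nop58 (0.96) and to Nqo1 Ankrd13c (0.90). The 14 points share slides, arrays and diets, and the highest of 14626 values is large by selection.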

How the data were processed

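Total RNA of 14 plantaris muscles was labelled with Cy3 and hybridised to 1-colour Agilent rat arrays, per the labels' protocols. Per the file headers, the scanner files deposited give each spot's intensity as processed in Agilent Feature Extraction, with background subtraction and detrending within the array. The submitters' processing notes name version 11.5.1.1 and limma. The authors' deposited table holds 1 log2 value per probe for 26902 probes, with column medians of 8.418 to 8.491. Its values follow the scanner signals upward on a log2 scale, each column is centred alike, and how the authors normalized and filtered it is not given in the sources used here. It served only as an alternative, and does not hold Gclm.

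Control spots and spots marked as outliers (0.669% to 1.05% per array) were left out. The remaining spots of each probe were averaged, and the log2 of this processed signal was set against the 75th percentile of all non-control spots of that array (1781 to 2387 units). Of 30367 probes, 18438 were named by accession in a RefSeq table, 3168 by symbol and 419 by synonym, 1820 kept the file's name and 6522 had none. A gene was read by its brightest probe. Filtering left 26391 probes of 17434 genes. Groups came from titles. Diet and slide were fitted together in limma 3.58.1 (R 4.3.3) with Benjamini-Hochberg adjustment, and the fit was tested on simulated data. Slide-centred correlations were tested by exact permutation within slides (3456 arrangements, two-sided, smallest possible p 0.000289), a test added after the data were seen. Sequences and figures were handled in Python 3.11.15 (numpy 2.4.6, pandas 2.3.3, matplotlib 3.10.9).

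The members and gene lists were chosen with earlier results of these data known. Genes named besides the members were Nfe2l2, Keap1, Bach1 and Hmox2, up to 2 genes per list and comparison with the smallest unadjusted p, and up to 3 genes most like each member. Some single-gene results are withheld for evaluation and not reported here. Alternatives were the block, background correction (normexp, offset 50), normalization, the authors' values, filters, outlier spots kept, array weights, the groups fitted, the mean of a gene's probes, the doubtful array counted as repletion, and each array left out.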

Additional observations from a re-analysis of the deposited data

Results flagged for a closer look

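Among 27 groups checked (9 genes in 3 diets), 2 held an array whose gap to its nearest neighbour was large against the range of the group. Chance gives such a gap in about 1 of 20 groups. For Sod2, depletion replicate 1 was lowest at 1.97, with the next depletion array at 2.50, a gap of 0.70 of the range, past the 95% critical value for 6 arrays. It is the array whose diet field contradicts its title. For Cat, control 4 was lowest at -1.74, with the next control at -0.80, a gap of 0.865 of the range, past that for 4 arrays. Depletion 5, on the same slide as control 4, was at -1.63.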

How the results depend on the processing

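No probe and none of the 9 enzymes passed an adjusted p under 0.05 in any comparison under the 28 alternatives tried (14 arrays left out in turn and 14 others), or in the F test over the 3 diets under the 27 of them that keep all 3 diets in the fit, and the lowest adjusted p of a member was 0.581. The number with an unadjusted p under 0.05 ran from 0 to 4 in depletion minus control, 0 to 1 in repletion minus depletion and 0 to 2 in repletion minus control. Of 27 values (9 genes in 3 comparisons), 19 kept their sign throughout, and 29 of 756 recomputed values had the opposite sign. Some of the 756 could not differ from the main value. The filters do not change a difference, nor does the mean of a gene's probes where it has 1. Keeping outlier spots changes nothing where a gene has none. The counts are thus no measure of how stable the signs are. The cause of the changes in sign was not tested. Cat in depletion minus control was 0.0052 with quantile normalization, 0.0025 in the authors' values, 0.072 with array weights and 0.095 with depletion replicate 1 counted as repletion, and -0.16 to 0.26 with 1 array left out. Counting that array as repletion also gave -0.045 for Cat and -0.074 for Sod2 in repletion minus depletion and -0.075 for Sod2 in repletion minus control, where the authors' values gave -0.0028. Sod3 in repletion minus control was 0.0038 with no block, 0.0038 with the replicate block and 0.14 with only those groups fitted. Leaving out 1 array gave -0.42 to 0.079 for that value, -0.23 to 0.12, -0.034 to 0.22 and -0.19 to 0.12 for Sod2 in repletion minus control, repletion minus depletion and depletion minus control, -0.13 to 0.22 for Gpx3 and -0.13 to 0.38 for Hmox1 in repletion minus depletion. Replicate numbers gave no clear pairing of the arrays: 8 of 12 same-numbered pairs correlated above 0.1 (lowest -0.49), and 4 of 12 arrays were closest to their own number. Some same-numbered pairs also share a slide, so number and slide cannot be told apart in them. The fit with the replicate block called 0 probes, as did every other fit, so that count does not bear on pairing. All 12 pairs on a shared slide correlated above 0.1 (0.23 to 0.72). Normexp moved the median of all probes to -0.14 in depletion minus control and -0.12 in repletion minus control, so Hmox1, at 0.59 and 0.67 there, lay further above that median. Signal near background limits Gclm, Ggt1 and the neutrophil marker Elane.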

Other observations

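The slow fibre transcripts Myh7 and Atp2a2, which are not antioxidant genes, lay in the direction of Gpx1 and Hmox1 in both comparisons with control. Myh7, the slow myosin heavy chain, differed by 0.74 ± 0.31 in depletion minus control (limma, unadjusted p = 0.0388), and Atp2a2, the slow calcium pump, by 0.92 ± 0.40 (unadjusted p = 0.0441). In repletion minus control the values were 0.57 ± 0.33 and 0.73 ± 0.43. In repletion minus depletion they were -0.17 ± 0.28 and -0.19 ± 0.36, where Gpx1 was at -0.19 and Hmox1 at 0.08. Srxn1, the sulfiredoxin gene and a known Nrf2 target, differed by 0.54 ± 0.43 in depletion minus control and by -0.42 ± 0.39 in repletion minus depletion. Its list of 18 tested genes lay the other way. In depletion minus control 11 were lower, with a median of -0.05, and in repletion minus depletion 11 were higher, with a median of 0.06. Myh7, Atp2a2 and Srxn1 were named after their values were seen, none was called, and their relation to the enzymes was not tested.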
